A study of Mus musculus with 8 samples.

Results

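The step between 2 sort gates was described in mouse T-cell progenitors in which both STAT5 genes had been targeted with CRISPR guides. It compares 2 late libraries, CD25+ and positive for a Bcl11b-mCherry reporter, with 2 early libraries, CD25+ and reporter-negative. These gates follow the sample titles; the series' design text calls the mCherry+ gate reporter-negative too, at odds with its own mCherry+ label. These 4 libraries are chosen by their labels from a series of 8, and the other 4 hold the same gates with control guides. In every group, bone-marrow progenitors came from B6 mice that carry Cas9, a Bcl2 transgene and the reporter, were kept overnight with IL-7, Flt3 ligand and SCF, and were infected with retrovirus that delivers guides. The sgStat5 cells received 3 guides against Stat5a and 3 against Stat5b. All cells were then cultured for 6 days on OP9-Dll1 stromal cells, which present a Notch ligand, in medium that held 10 ng/ml of IL-7 and of Flt3 ligand. Infected, lineage-negative cells were sorted. The sgStat5 cells are a pool of infected cells and not a clone, so edited and unedited alleles are mixed in a library. The labels do not say which animals or cultures the 2 replicates came from, so p-values measure the spread between these libraries, which may be technical.

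T-cell commitment is the passage from a progenitor that can still form other blood cells to one restricted to the T lineage. Notch signals start the programme, factors such as TCF1 and GATA3 carry it forward, and the factor BCL11B is switched on as cells commit. Stem and progenitor genes, PU.1 (Spi1) among them, are then shut down, while the pre-T-cell receptor, the CD3 chains and the recombinase genes come on. STAT5A and STAT5B are activated by IL-7 and related cytokines and serve survival and growth of these cells.

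The gates and the targeted genes were examined first. Bcl11b (chr12:107910403-108003414, mm10) stood at 132 and 70.1 CPM in the early libraries (replicates 1 and 2; CPM are read counts scaled to a common library size) and at 797 and 415 CPM in the late ones. Both late libraries were above both early ones, and as the reporter that set the gates reads this gene, its difference is part of the sort. Stat5a (chr11:100859351-100885169) was at 106 and 105 CPM early and 116 and 107 CPM late in sgStat5 cells, against 258 and 257 CPM and 257 and 238 CPM in control cells. Stat5b (chr11:100780731-100850585) was at 144 and 133 CPM early and 154 and 135 CPM late, against 255 and 249 CPM and 279.8 and 255 CPM in control cells. The sgStat5 libraries thus lay below the control libraries for both genes in either gate. Neither gene passed between the sgStat5 gates (log2 fold change 0.08, standard error SE 0.07, adjusted p = 0.452 for Stat5a, and 0.06, SE 0.07, adjusted p = 0.592 for Stat5b, edgeR). The 2 genes are neighbouring paralogs, between which reads can be shared. Il2ra, which encodes the sort marker CD25, was present in all 8 libraries, between 1374 and 3152 CPM.

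Total counts were 22146490 to 27169689 per sgStat5 library and 22146490 to 31209177 over all 8. Stromal markers, which OP9 cells could contribute, summed to 201 and 421 CPM over 18 genes in the early sgStat5 libraries and to 628 and 778 CPM in the late ones. Early replicate 1 stood apart, with 8 of the 18 at 0, among them the collagen gene Col1a1 and fibronectin (Fn1), against 2 or 3 in the other 3 sgStat5 libraries. Thbs1 and Pdgfrb held much of these sums; without both, chosen after their values were seen, the other 16 genes summed to 19.4 and 305 CPM early and 195 and 548 CPM late, so late replicate 1 lay below early replicate 2. Of 16 stromal markers tested, 4 were higher and 0 lower in the late gate, and in 2 of 16 both late libraries lay above both early ones (median log2 fold change 2.02, 0 called without the replicate block; 10 higher without early replicate 2, 7 without late replicate 2 and 1 without late replicate 1). Over all genes 11.3% were higher and 11.5% lower. Both late libraries lay above both early ones in 28.1% of all genes, a larger share than 2 of 16. Markers of B cells stayed between 11.01 and 17.9 CPM in sum over 11 genes, with 0 of 5 called. NK and innate lymphoid genes summed to between 1956 and 2329 CPM in the 4 libraries, most of it from Gzma; without that gene, left out after its values were seen, the sums were 599 and 656 CPM early and 249 and 359 CPM late. Those of mast cells, basophils and the megakaryocyte-erythroid lineage were at 1622 and 1245 CPM early and 616 and 575 CPM late. In that sum Hbb-bs went from 555 and 477 CPM to 41.8 and 122 CPM, and Itga2b from 235 and 323 CPM to 14.9 and 60.3 CPM. Its largest late member, Cpa3, overlapped between the gates, at 742 and 353 CPM early and 494 and 324 CPM late. Myeloid and dendritic markers were at 186 and 214 CPM early and 219.5 and 270.3 CPM late. The part of such cells in the results below was not tested.

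**Figure D1:**
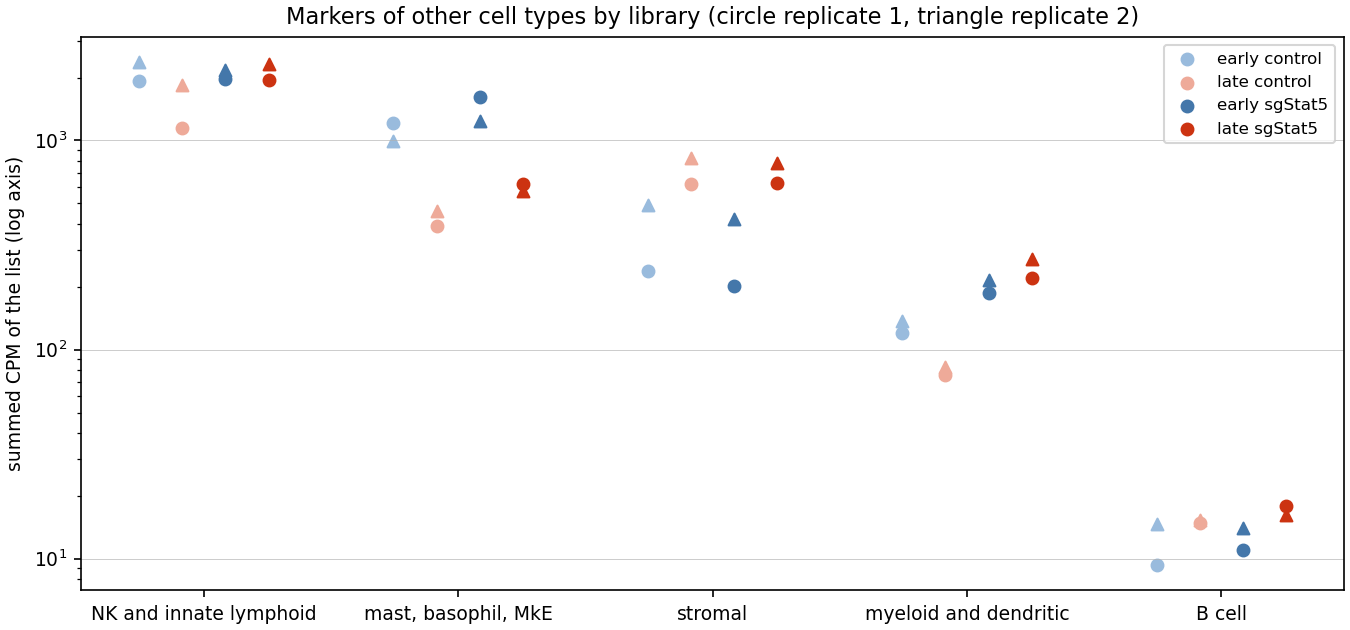
Summed CPM (log axis) of markers of other cell types in each of the 8 libraries; colours give gate and guide, circles replicate 1 and triangles replicate 2. In sgStat5 cells the mast, basophil and megakaryocyte-erythroid sum is lower in both late libraries (616 and 575 CPM) than in both early ones. Hbb-bs and Itga2b fell within it, while its largest late member, Cpa3, overlapped between the gates (742 and 353 CPM early, 494 and 324 CPM late). The stromal sum is higher in both late libraries (628 and 778 CPM against 201 and 421 CPM). Without Thbs1 and Pdgfrb it is not, as late replicate 1 (195 CPM) lies below early replicate 2 (305 CPM).

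Across the step, 1562 of 13775 genes tested were higher in the late gate (11.3%) and 1582 were lower (11.5%), at an adjusted p under 0.05 in edgeR's quasi-likelihood test with Benjamini-Hochberg adjustment and the replicate number as a block. The increases were the larger changes: 592 of the genes called higher changed by over 2-fold, against 279 of those called lower. The median log2 fold change over all genes was 0.02. Without the block 134 genes passed (0.973%), 91 higher and 43 lower, and all 134 were among the blocked calls with the same sign. In 28.1% of all genes both late libraries lay above both early ones, and in 28.1% both lay below. The count rests on single libraries: 886 genes passed without late replicate 1, 1119 without early replicate 1 and 2065 without late replicate 2. In this bulk RNA, a change in the number of cells of a type and a change in RNA per cell cannot be told apart.

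The T-lineage regulators rose or did not pass, and none fell. Of 21 commitment transcription factors tested 11 were higher (median log2 fold change 0.56, 3 higher without the block), against 11.3% of all genes. The count was 11 without each of the 8 libraries in turn. The 11 include Bcl11b, whose reporter set the gates, so its rise is part of the sort. Lef1 (chr3:131110297-131224357), a partner of beta-catenin related to TCF1, was at 9.44 and 5.87 CPM early and 169.6 and 56.04 CPM late. Both late libraries were well above both early ones, and the log2 fold change was 3.73 (SE 0.31, adjusted p = 0.000181). Ets1 (chr9:32696042-32757820), a factor that binds many T-cell enhancers, was at 170.2 and 100.0 CPM early and 689 and 342 CPM late (1.9, SE 0.08, adjusted p = 3.25e-05). The late values did not overlap the early ones in either gene. Ets2 (1.67), Bach2, a repressor that restrains effector genes (1.56), and the repressor Gfi1 (1.33) rose too. The 2 factors that open the programme did not pass. Tcf7, which encodes TCF1, was at 1275 and 1186 CPM early and 1449 and 1274 CPM late (0.14, SE 0.06, adjusted p = 0.0996), and Gata3 at 158 and 138 CPM early and 147 and 151 CPM late (0.0050, 95% interval -0.19 to 0.20).

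The pre-T-cell receptor and CD3 genes had the largest median among the T-lineage lists. Of 23 genes of CD3, the pre-TCR and proximal signalling 18 were higher, against 11.3% of all genes, and 0 lower (median 1.52; 1 without the block). Ptcra (chr17:46755663-46763712), which encodes the invariant chain that pairs with the rearranged beta chain, was at 1.08 and 0.776 CPM early and 46.9 and 26.8 CPM late. It was low in the early gate and higher in both late libraries (log2 fold change 5.37, SE 0.63, adjusted p = 0.000905). Cd3d (chr9:44981786-44987052), Cd3g and Cd3e, which lie side by side and encode chains of the CD3 complex, followed. Cd3d was at 6.83 and 3.99 CPM early and 132 and 50.3 CPM late (4.02, SE 0.38), Cd3g at 75.9 and 43.5 and 538 and 324 CPM (2.87, SE 0.27), and Cd3e at 19.1 and 3.8 and 142 and 21.8 CPM (2.76, SE 0.19). Cd3e in late replicate 2 was only just above early replicate 1, while each replicate pair showed a like ratio, which is what the block uses. The kinase gene Zap70 (2.71) and the adhesion receptor Cd2 (2.86) rose from values under 1 CPM; Zap70 was lost without early replicate 1, and Cd2 without that library, late replicate 2 or late control replicate 1.

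To show what lies before the start of such genes, 200 bases that end at the RefSeq start site (GRCm38.p6, gene strand) are given for 3 risers. Capitals mark CAGNTG, an E-box read by E proteins, on either strand.
Ptcra (chr17:46763713-46763912, minus strand): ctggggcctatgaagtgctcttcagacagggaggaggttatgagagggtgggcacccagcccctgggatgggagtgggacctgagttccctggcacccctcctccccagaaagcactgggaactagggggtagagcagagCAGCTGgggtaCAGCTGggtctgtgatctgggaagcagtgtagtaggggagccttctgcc
Cd3d (chr9:44981586-44981785, plus strand): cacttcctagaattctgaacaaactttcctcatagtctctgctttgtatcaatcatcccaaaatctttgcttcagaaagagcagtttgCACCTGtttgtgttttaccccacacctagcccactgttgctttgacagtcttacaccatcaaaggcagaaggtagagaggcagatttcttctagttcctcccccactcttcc
Rag1 (chr2:101649533-101649732, minus strand): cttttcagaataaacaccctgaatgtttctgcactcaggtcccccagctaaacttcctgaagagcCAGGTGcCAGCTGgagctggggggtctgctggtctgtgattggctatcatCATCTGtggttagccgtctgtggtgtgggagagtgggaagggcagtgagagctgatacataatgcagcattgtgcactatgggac
Of 18 genes of the CD3 and pre-TCR list with a promoter entry, 13 (72.2%) held CAGNTG in the 250 bases before the start, against 42.8% of 10461 genes tested with an entry and 44.8% of all 32851 windows of that length. In the recombination list the share was 33.3% (3 of 9), in the NK and innate lymphoid list 80% (12 of 15), in the stromal list 75% (6 of 8) and in the mast and megakaryocyte-erythroid list 66.7% (6 of 9), so a high share was not particular to the CD3 genes. The same 200-base window of Cd3e held 0 matches. A match describes letters and not binding.

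Of 10 genes of receptor gene recombination 6 were higher, against 11.3% of all genes, and 0 lower (median 1.13; 0 called without the block). Rag1, which encodes the catalytic recombinase subunit, was at 59.8 and 42.6 CPM early and 518 and 220.3 CPM late (2.75, SE 0.18, adjusted p = 8.73e-05). Its partner Rag2 was at 30.3 and 23.6 CPM early and 101 and 62.03 CPM late (1.57, SE 0.13). Dntt, the polymerase that adds untemplated bases at the joints, was at 292 and 86.5 CPM early and 2282 and 902 CPM late (3.21, SE 0.29). The late libraries were above the early ones for all 3 genes. The end-joining genes Lig4 (1.26), Xrcc6 (1.17) and Dclre1c (1.08, lost without late replicate 1) rose as well.

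**Figure D2:**
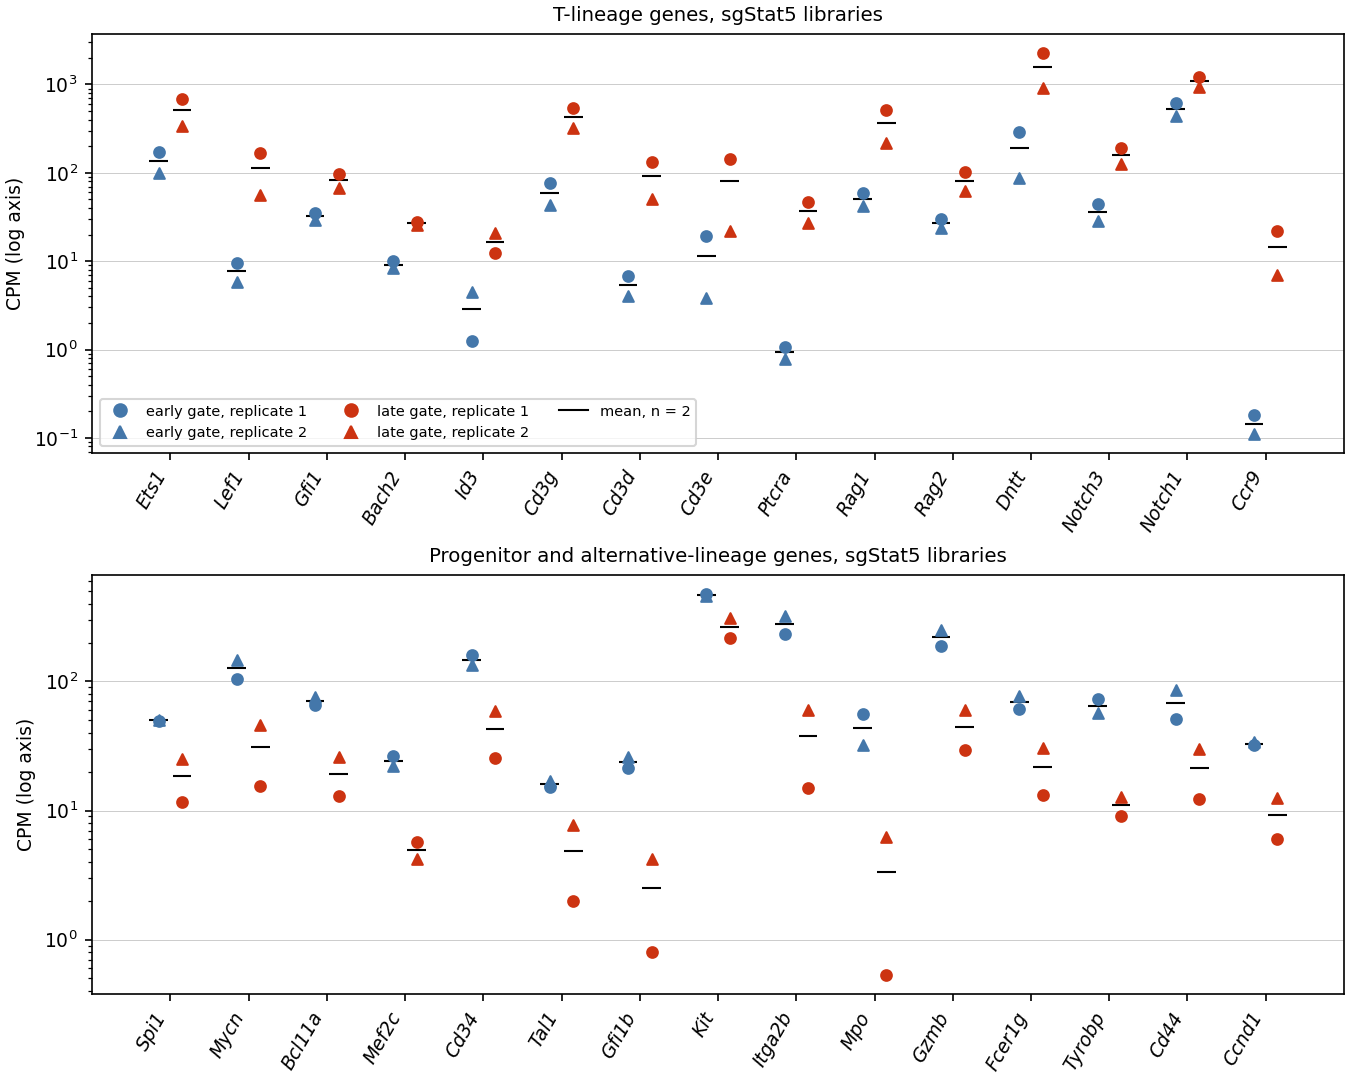
CPM (log axis) of T-lineage genes (top) and progenitor and alternative-lineage genes (bottom) in the 4 sgStat5 libraries; blue is the early gate, red the late gate, circles replicate 1, triangles replicate 2 and bars the mean of 2. Ptcra goes from 1.08 and 0.776 CPM to 46.9 and 26.8 CPM, and Itga2b from 235 and 323 CPM to 14.9 and 60.3 CPM.

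E proteins and their Id inhibitors, Notch genes and surface molecules moved in part. The shares over all genes, for comparison, were 11.3% higher and 11.5% lower. Of 6 E and Id genes 3 were higher (1 without the block). Id3, an inhibitor of E proteins that pre-TCR signals induce, was at 1.26 and 4.47 CPM early and 12.2 and 20.7 CPM late (2.68, SE 0.29, adjusted p = 0.000642), and the E protein gene Tcf12 rose by 1.02. Id2, the inhibitor that favours innate lymphoid fates, did not pass (-0.02, SE 0.15). Of 19 Notch receptors and targets 5 were higher and 4 lower (median -0.02; 0 without the block; 3 higher and 1 or 2 lower without early replicate 1, late replicate 1 or late replicate 2, and 5 and 2 without early replicate 2). Notch3 was at 44.2 and 28.7 CPM early and 189 and 126 CPM late (2.12, SE 0.17), and Notch1 at 609 and 442 CPM early and 1230.3 and 935 CPM late (1.05, SE 0.17). Both receptors were higher in both late libraries, while the feedback gene Nrarp fell by 1.1 (SE 0.23) and the target Hes1 did not pass (0.22, adjusted p = 0.183).

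Of 15 surface molecules 5 were higher and 3 lower (3 and 0 without the block; 5 and 1 without late replicate 1). Thy1, a marker of the T lineage, was at 291 and 252 CPM early and 864 and 598 CPM late (1.41, SE 0.08, adjusted p = 4.60e-05; also called without the block, adjusted p = 0.0482). Ly6d (1.77) and Cd27 (0.65) rose, and Cd44, whose loss marks passage to the DN3 stage, fell by 1.8 from 51.3 and 85.7 CPM to 12.4 and 29.9 CPM. Il2ra fell by 0.35 (SE 0.11, adjusted p = 0.0475), from 1980.0 and 2155 CPM to 1374 and 1886 CPM. That call is the least secure of these, since it was lost without 5 of the 8 libraries (early replicate 1, early replicate 2, late replicate 1 and either late control library). Among 17 chemokine receptors and integrins 5 were higher and 2 lower (2 and 0 without the block; 3 and 1 without early replicate 1 or late replicate 1, 4 and 1 without late replicate 2). For these counts and those of the surface molecules, the shares over all genes were 11.3% higher and 11.5% lower. Ccr9, a receptor for the thymic and gut chemokine CCL25, was at 0.18 and 0.111 CPM early and 22.2 and 6.88 CPM late (6.49, SE 0.50, adjusted p = 0.000148). The early values are 4 and 3 reads, so the size of this fold rests on few reads. Itgae, which encodes the integrin CD103, rose by 2.28 (SE 0.34) and passed with the block (adjusted p = 0.00244) and without it (0.0486).

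Progenitor regulators fell. Of 21 tested 12 were lower, against 11.5% of all genes, and 1 was higher (median -1.16; 1 lower without the block, 6 lower without late replicate 1 and 9 without early replicate 1). Spi1 (chr2:91096678-91115759), which encodes PU.1, was at 49.3 and 50.5 CPM early and 11.7 and 25.3 CPM late. The 2 early libraries were nearly equal and the late ones lay below them (fell by 1.55, SE 0.25, adjusted p = 0.00347). Mycn, a MYC family factor of early progenitors, was at 105 and 148 CPM early and 15.4 and 46.3 CPM late (fell by 2.17, SE 0.21, adjusted p = 0.000436). Bcl11a, the progenitor paralog of Bcl11b, was at 65.9 and 75.2 CPM early and 12.9 and 25.8 CPM late (fell by 1.96, SE 0.27). Mef2c, a factor of lymphoid progenitors, fell by 2.29 (adjusted p = 0.000924, 0.0480 without the block), and Kit, the receptor for SCF, fell by 0.84 from 475 and 455 CPM to 217 and 309 CPM. In all but Mef2c of these, late replicate 1 was lower than late replicate 2. Cd34 (fell by 1.92), Tal1 (fell by 1.87) and Gfi1b (fell by 3.61) lost their calls without late replicate 1, and Tal1 and Gfi1b also without early replicate 1. The exception to the direction was Ly6a, the Sca-1 gene, which interferon can induce, at 67.9 and 86.4 CPM early and 219 and 254 CPM late (1.62, SE 0.08, adjusted p = 3.61e-05; 0.0319 without the block). Flt3, the receptor for the Flt3 ligand in the medium, was at or under 1.76 CPM in the 4 libraries and did not pass.

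Most markers of other blood lineages did not pass or were split in direction. Over all genes 11.3% were higher and 11.5% lower. Of 9 mast, basophil and megakaryocyte-erythroid markers 3 were lower and 0 higher (0 without the block and 0 without late replicate 1). Itga2b, which encodes CD41, was at 235 and 323 CPM early and 14.9 and 60.3 CPM late (fell by 3.22, SE 0.62, adjusted p = 0.00746). The beta-globin gene Hbb-bs of the list and its near-identical copies Hbb-bt and Hbb-b2 fell by 2.91, fell by 2.96 and fell by 2.96; they share reads and count as a single observation. The basophil protease gene Mcpt8 fell by 2.17 (lost also without early replicate 1). None of these calls held without late replicate 1. Of 20 NK and innate lymphoid genes 6 were lower and 1 higher (median -0.71; 0 without the block). The signalling adaptor genes Tyrobp, at 72.6 and 56.8 CPM early and 9.1 and 12.8 CPM late, and Fcer1g, at 61.4 and 77.5 CPM early and 13.3 and 30.3 CPM late, fell by 2.62 and fell by 1.77. The first lost its call without late replicate 1. Gzmb, which encodes granzyme B, was at 189 and 251 CPM early and 29.2 and 60.1 CPM late and fell by 2.39 (SE 0.30, adjusted p = 0.00130). Zbtb16, which encodes the innate-like lymphocyte factor PLZF, fell by 1.03 (adjusted p = 0.0276; lost without early replicate 1, late replicate 1 or late replicate 2). The member that rose, Gzma, was at 1359 and 1514 CPM early and 1707 and 1969.9 CPM late (0.35, adjusted p = 0.0477) and lost its call without 5 of the 8 libraries, namely both early control, early replicate 2 and both late libraries.

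Myeloid and dendritic markers split, with 7 of 20 higher and 5 lower (median 0.21; 1 and 1 without the block; 3 and 1 without late replicate 1; 4 and 1 without early replicate 1; 5 and 3 without late replicate 2). Those that fell, against 11.5% of all genes, include Mpo of granulocytes and Itgax of dendritic cells. The antigen presentation genes below, from the same list, rose, so the list gives no single direction for dendritic markers. Mpo, which encodes myeloperoxidase, was at 55.8 and 32.1 CPM early and 0.53 and 6.2 CPM late (fell by 3.92, SE 0.90; lost without early replicate 1 or late replicate 1). Itgax, which encodes CD11c, was at 24.9 and 16.4 CPM early and 2.65 and 3.84 CPM late (fell by 2.68, SE 0.37; adjusted p = 0.00172 with the block and 0.0486 otherwise). Those that rose, against 11.3% of all genes, include antigen presentation genes. Cd74, the invariant chain of MHC class II, was at 11.4 and 30.5 CPM early and 59.00 and 77.3 CPM late (1.91, SE 0.30, adjusted p = 0.00312). H2-Aa was at 3.33 and 15.6 CPM early and 15.9 and 24.1 CPM late (1.51, SE 0.43, adjusted p = 0.0351; lost without early replicate 1, early replicate 2 or late replicate 1). Cd74 was higher in both late libraries, while the lower late H2-Aa value barely exceeded the higher early one. Ctss, a protease that trims the invariant chain, rose by 1.61 (adjusted p = 0.00121; 0.0486 without the block).

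Genes of the IL-7 and cytokine pathway were called in both directions, where 11.3% of all genes were higher and 11.5% lower. The receptor and response lists were not tested against each other. Of 25 cytokine receptor, JAK and STAT genes 12 were higher and 2 lower (median 0.26; 2 and 0 without the block; 7 and 1 without late replicate 1). The lower 2 include Il2ra. Il7r, the gene of the alpha chain by which cells bind IL-7, was at 154 and 112 CPM early and 239.6 and 236 CPM late (0.85, SE 0.11, adjusted p = 0.00136). The late values were close to each other and above both early ones. Ifngr1 (1.26; adjusted p = 0.0486 without the block), Il6st (1.08; 0.0486 without the block) and Stat2 (0.99) rose, and Csf2rb, the common chain of the IL-3 and GM-CSF receptors, fell by 1.16. Of 23 STAT5-associated response genes 4 were higher and 4 lower, against 11.3% and 11.5% of all genes (median 0.01; 1 and 0 without the block; 2 and 1 without early replicate 1 or late replicate 1). Cish, an inhibitor induced by STAT5, was at 1.98 and 10.5 CPM early and 2.74 and 6.74 CPM late, and Socs2 at 11.1 and 27.3 CPM early and 15.9 and 21.5 CPM late. Neither passed (-0.29, adjusted p = 0.624, and 0.01, adjusted p = 0.977), and in both genes the replicates of a gate differed more than the gates did. Socs1 (1.05) and Socs3 (1.8) rose, both also interferon- or IL-6-responsive, as did Bcl6 (0.96; lost without early replicate 1 or late replicate 1). Pim1, a kinase gene, fell by 0.39 (lost without the same 2 libraries). Bcl2 was at 78.4 and 144 CPM early and 93.6 and 143 CPM late (0.11, adjusted p = 0.678). The labels and headers do not say whether transgene RNA enters that count.

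Interferon-response genes rose nearly throughout. Of 30 tested 25 were higher, against 11.3% of all genes, and 0 lower (median 1.08; 7 without the block), and both late libraries lay above both early ones in 28 of 30, against 28.1% of all genes. The replicate pair medians were 1.2 and 0.88, and between 20 and 26 members were higher with any 1 library left out. Zbp1, a nucleic-acid sensor, was at 18.4 and 13.00 CPM early and 88.6 and 62.5 CPM late (2.27, SE 0.25, adjusted p = 0.000655). Gbp5, a guanylate-binding protein, was at 26.9 and 29.3 CPM early and 88.8 and 107 CPM late (1.8, SE 0.14, adjusted p = 0.000174; 0.0319 without the block). The late values lay well above the early ones in either gene. Iigp1 (2.11), Oasl2 (1.92), Ifit1 (2.1) and Ifit3 (1.76; lost without early replicate 1 or late replicate 2) rose as well. Ifit1, whose product binds foreign RNA, was low, at 4.18 and 2.4 CPM early and 18.4 and 9.82 CPM late.

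The 200 bases before 2 of these starts are shown because their letters match the element by which interferon acts. Capitals mark GAAANNGAAA, the core of the interferon-stimulated response element (ISRE), on either strand, with overlapping matches run together.
Ifit1 (chr19:34640689-34640888, plus strand): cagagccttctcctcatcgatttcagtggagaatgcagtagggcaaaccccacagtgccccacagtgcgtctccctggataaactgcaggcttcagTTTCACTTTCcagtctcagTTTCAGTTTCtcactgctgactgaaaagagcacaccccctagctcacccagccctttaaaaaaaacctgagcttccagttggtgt
Isg15 (chr4:156200819-156201018, minus strand): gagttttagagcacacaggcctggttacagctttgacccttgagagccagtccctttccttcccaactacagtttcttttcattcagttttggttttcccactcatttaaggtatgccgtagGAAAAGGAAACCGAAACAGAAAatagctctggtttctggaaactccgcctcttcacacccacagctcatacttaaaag
Of 22 interferon-list genes with a promoter entry 14 (63.6%) held the motif within 250 bases, against 3.4% of 10461 genes tested with an entry and 2.98% of all windows. Among genes called higher across the step the share was 7.56% (90 of 1191), and among those called lower 3.84% (48 of 1250). Within the list, Oas1a, Rsad2 and Bst2, which did not pass, held the motif, while Ifit2 and Xaf1, which rose, did not. A match describes letters and not binding. Isg15 itself, a ubiquitin-like modifier, rose by 0.91 (SE 0.24, adjusted p = 0.0266).

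**Figure D3:**
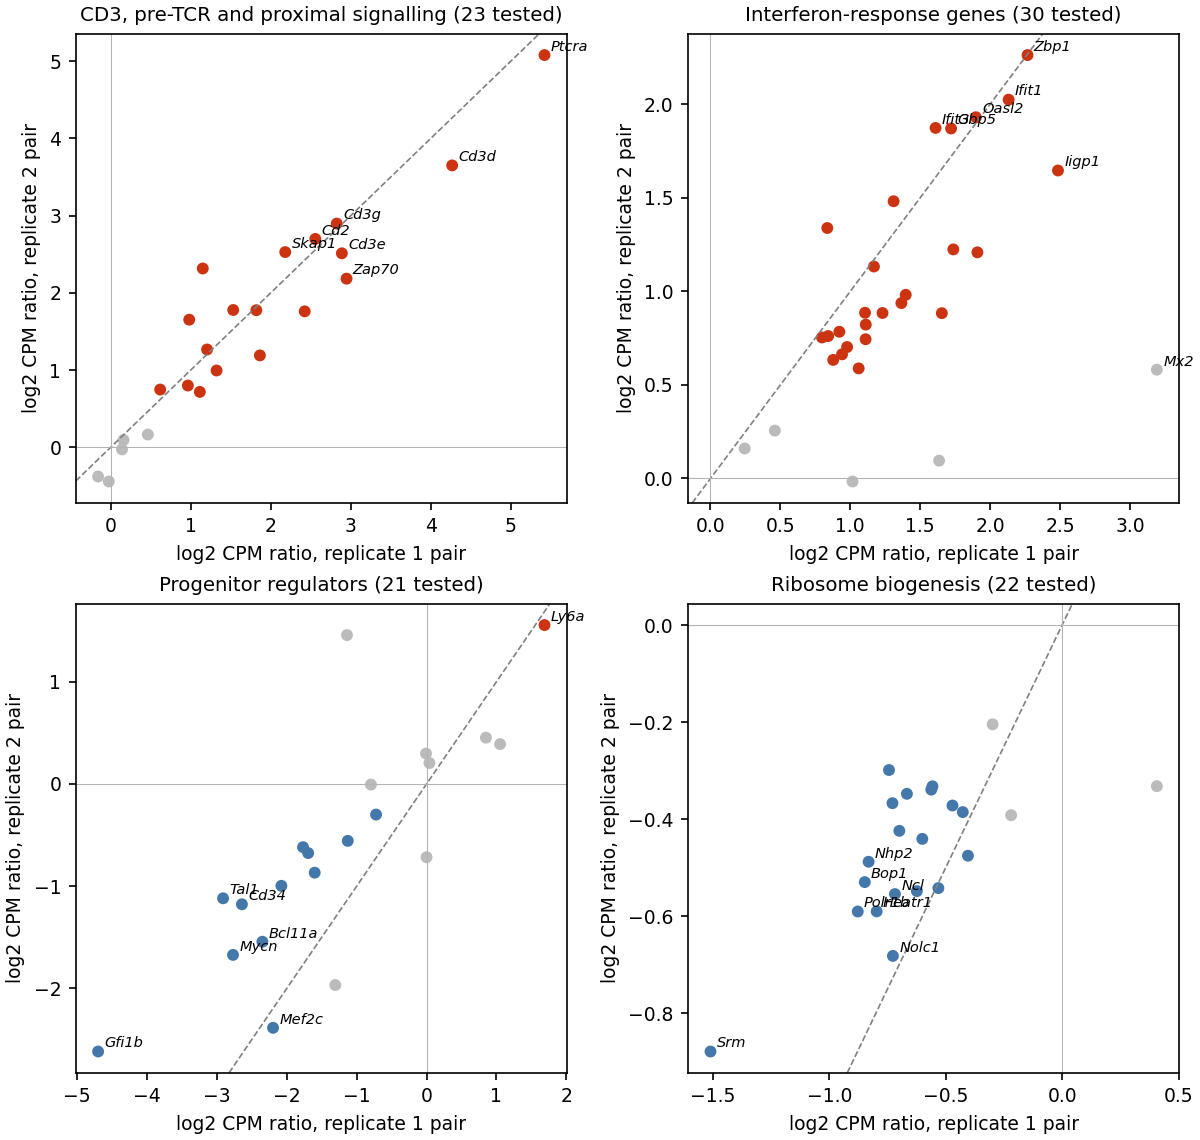
Log2 CPM ratio of late over early in the replicate 1 pair (x) and the replicate 2 pair (y) for members of 4 lists in sgStat5 cells; red is called higher, blue called lower, grey not passed, and the dashed line marks equal ratios. Interferon-response and CD3 genes called higher lie above 0 in both pairs, and the called progenitor and ribosome biogenesis genes that fell lie below 0 in both.

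Most ribosome biogenesis genes fell. Of 22 ribosome biogenesis genes 19 were lower, against 11.5% of all genes, and 0 higher (median -0.53; 0 without the block, 6 without late replicate 1 and 9 without early replicate 1). Both late libraries lay below both early ones in 21 of 22, against 28.1% of all genes. Srm, which makes spermidine, is a MYC target that the list holds though it is not itself a ribosome factor. It was at 145 and 161 CPM early and 50.8 and 87.5 CPM late (fell by 1.19, SE 0.16, adjusted p = 0.00153). Polr1b, a subunit of RNA polymerase I, was at 90.7 and 98.04 CPM early and 49.4 and 65.1 CPM late (fell by 0.73, SE 0.10). Each change was modest in size and the groups did not overlap. Glycolysis genes were called in both directions, where 11.3% of all genes were higher and 11.5% lower. Of 16 glycolysis genes 8 were lower and 2 higher (median -0.46; 0 without the block and 3 lower without late replicate 1; the number higher was 0 or 1 without 6 of the 8 libraries). Aldoa (fell by 0.92), Pgam1 (fell by 0.65) and Pgk1 (fell by 0.63) kept their calls without each library. Myc, which drives both groups of genes, was at 217 and 227 CPM early and 177 and 197 CPM late and did not pass (-0.25, SE 0.11, adjusted p = 0.116).

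Of 19 FOXO, KLF2 and quiescence genes 11 were higher, against 11.3% of all genes, and 1 lower (median 0.82; 2 and 0 without the block). Foxo1, a factor of resting lymphocytes that also activates Il7r, was at 9.44 and 7.5 CPM early and 35.1 and 27.7 CPM late (1.89, SE 0.22, adjusted p = 0.000810; 0.0482 without the block). Slfn2, needed for T-cell quiescence, was at 7.14 and 7.06 CPM early and 37.3 and 21.9 CPM late (2.01, SE 0.24; adjusted p = 0.0486 without the block). Klf3 (1.49), Btg1 (1.38), Btg2 (1.5) and the PI3K inhibitor gene Pik3ip1 (1.23) rose too. Of 10 D cyclin and CDK inhibitor genes 4 were higher and 2 lower (0 and 0 without the block; 0 and 1 without late replicate 1; 1 and 1 without early replicate 1; 3 and 1 without late replicate 2). The shares over all genes were 11.3% and 11.5%. Ccnd1, which encodes cyclin D1, was at 32.2 and 33.7 CPM early and 6.01 and 12.4 CPM late (fell by 1.96, SE 0.32). The CDK inhibitor gene Cdkn1b rose by 0.82 (lost without late replicate 1). Of 23 DNA replication and mitosis genes 3 were higher and 4 lower, against 11.3% and 11.5% of all genes (0 without the block, early replicate 1 or late replicate 1; 0 and 1 without early replicate 2; 6 and 1 without late replicate 2; 5 and 3 without either early control library). They included Mki67 (0.52) and the helicase gene Mcm2 (fell by 0.29), both lost without early replicate 1, early replicate 2 or late replicate 1, and Mcm2 also without late replicate 2.

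Of 11 BCL2 family genes 0 were higher and 2 lower, against 11.3% and 11.5% of all genes (0 without the block): the killer gene Bak1 fell by 0.41 and Bid fell by 0.54, the latter lost without early replicate 1 or either late library, which left 1 lower. Of 21 immediate-early and ERK feedback genes 2 were higher and 4 lower, against those shares (1 and 0 without the block, without early replicate 1 and without late replicate 1; 4 and 4 without early replicate 2; 1 and 3 without either early control library). Etv5, an ETS factor downstream of ERK, was at 52.03 and 44.1 CPM early and 101 and 114 CPM late (1.16, SE 0.15, adjusted p = 0.00143; 0.0486 without the block). Of 14 TNF family genes 4 were higher and 2 lower, against the same shares (0 without the block; 2 and 1 without early replicate 1 or late replicate 1, 3 and 1 without early replicate 2, 2 and 2 without late replicate 2). Ltb, which encodes lymphotoxin beta, rose by 1.71 from 28.8 and 18.7 CPM to 106 and 54.1 CPM, while its receptor gene Ltbr fell by 1.33. Fas, a death receptor gene, had 0 reads in either early library and 1.68 and 1.36 CPM in the late ones, at least 25.01-fold higher when set against a floor of 3 counts over both early libraries (lost without early replicate 1, late replicate 1 or late replicate 2).

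**Figure D4:**
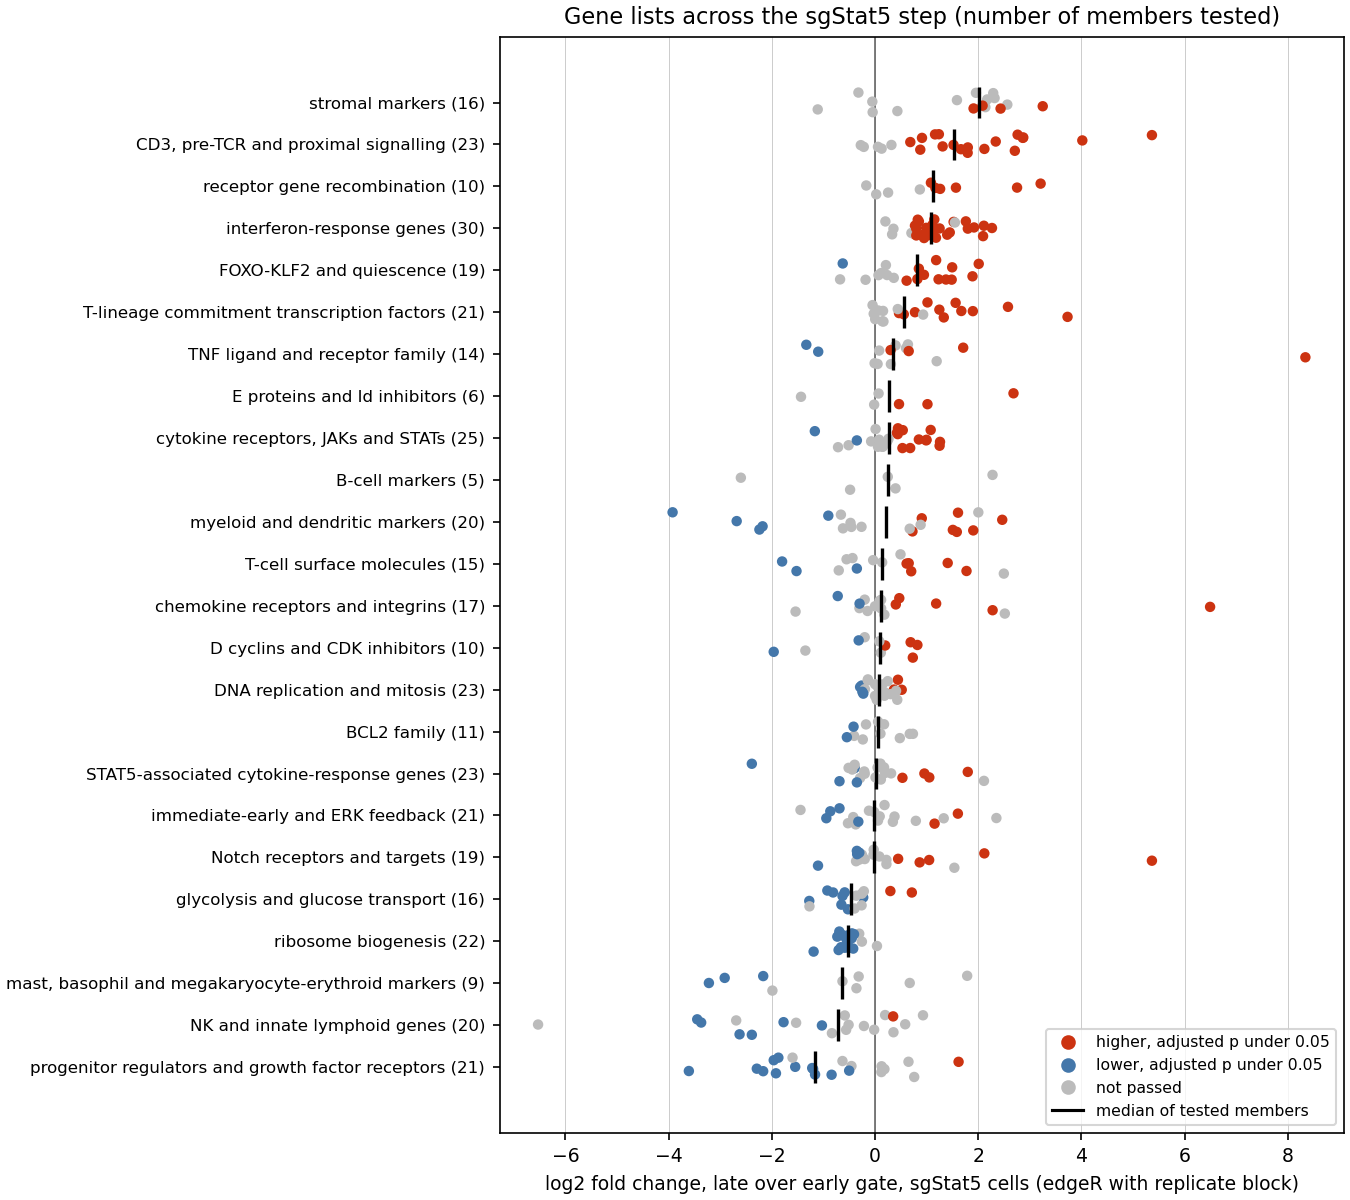
Log2 fold change of late over early in sgStat5 cells (x) for each tested member of the 24 gene lists (y, number tested in brackets); red is called higher, blue called lower, grey not passed, and bars are list medians. The point at the far right is Fas, with 0 reads in the early libraries, so its fitted value is no bound; CD3 genes have a median of 1.52, interferon-response genes 1.08, ribosome biogenesis genes -0.53 and progenitor regulators -1.16.

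The largest changes by the naming rule lay partly outside these lists. Beside Ccr9, Ptcra, Cd3d and Spib, an ETS factor of lymphocytes (4.01), the largest increases were in genes of diverse function. Arl5c, which encodes an ARF-like GTPase, was at 0.944 and 0.259 CPM early and 75.5 and 16.6 CPM late (6.3, SE 0.33, adjusted p = 3.61e-05), and Rab11fip4, which encodes a RAB11 effector, at 0.719 and 0.222 CPM early and 68.7 and 13.5 CPM late (6.55, SE 0.46). Both were under 1 CPM in the early libraries, and replicate 1 was the higher of the late ones. Pdlim4, which encodes a PDZ and LIM domain protein, had 0 reads in both early libraries and 15.5 and 0.968 CPM in the late ones. The mean of the late libraries was at least 135-fold over the same floor. That mean rests mostly on late replicate 1, with 351 reads against 27 in late replicate 2, so the bound does not hold for replicate 2 alone. Cldn4 (6.03, lost without late replicate 1), Gpnmb (4.94), Hid1 (4.22) and Dgkeos (4.79) were also among the 12 largest increases. Their reads in early replicates 1 and 2 were 5 and 0, 6 and 6, 30 and 14, and 8 and 6. The sizes of these folds thus rest on few early reads. Dgkeos lies antisense to another gene by its name. The labels and headers name no strand setting, so its reads cannot be told from those of its partner. Among the 12 largest decreases, beside Mpo, Gfi1b, Itga2b, Hbb-bt and Hbb-b2, Sema3c, a secreted semaphorin gene, was at 14.9 and 41.5 CPM early and 0.663 and 5.99 CPM late (fell by 3.38, SE 0.57), and Aatk fell by 3.62. Both kept their calls without each library. Sh2d1b1 (fell by 4.15), Adgrl4 (fell by 3.33), Cd300a (fell by 3.35), Bex6 (fell by 3.12) and Cd180 (fell by 3.0) lost theirs without late replicate 1, the first 3 also without early replicate 1, Sh2d1b1 without late replicate 2 and Cd300a without early control replicate 1.

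The same step in control cells was set beside these values. In control cells 914 genes were higher (6.64%) and 593 lower (4.3%), and 2 passed without the block. The control count rests on replicate 1, with 161 calls without its early and 169 without its late library. Of the 3144 genes called in sgStat5 cells 1244 were also called in control cells (39.6%), which is 82.5% of the control calls, and 1242 of them had the same sign. The 2 with opposite signs, named here after their values were seen, are the adhesion gene Dscam (1.68 in sgStat5 and -2.83 in control cells) and Gem, a small GTPase gene (0.66 and -0.90). By sign alone, 97.2% of the sgStat5 calls had the same direction in control cells. Over the genes called in control cells the median size of the control step was 0.66, and the sgStat5 step in the same direction had a median of 0.69. Over the genes called in sgStat5 cells the median size of the sgStat5 step was 0.61, and the control step in that direction had a median of 0.40; in either case the genes were chosen by the step named first. Direction was thus shared by nearly all called genes, while fewer passed in control cells. CD3 and pre-TCR genes had a control median of 0.90 (15 of 23 higher), interferon-response genes 0.83 (18 of 30 higher), progenitor regulators -1.05 (9 of 21 lower) and ribosome biogenesis -0.39 (18 of 22 lower).

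**Figure D5:**
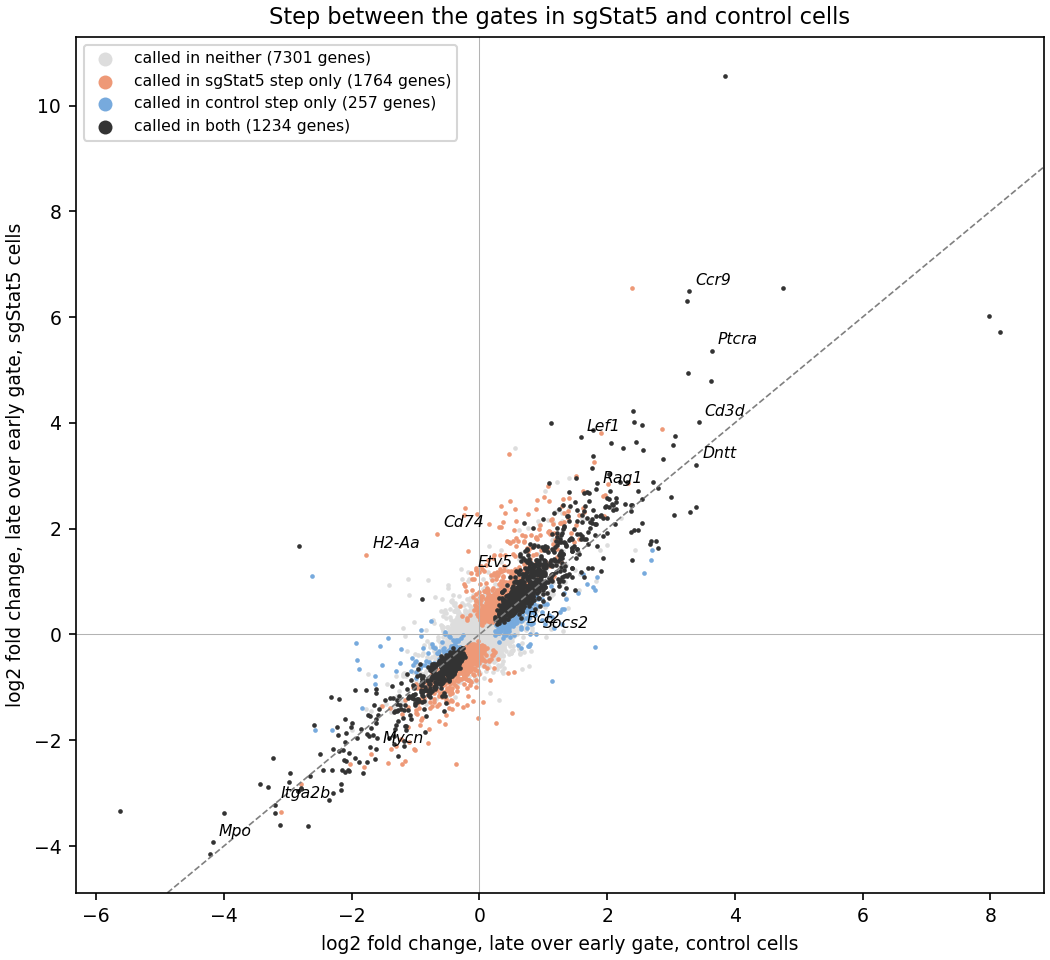
Log2 fold change of late over early in control cells (x) and sgStat5 cells (y) for 10556 genes with a mean of at least 5 CPM in 1 or more groups; colours give the calls and the dashed line marks equal steps. Ptcra, Cd3d and Dntt lie at the upper right, and Mpo and Itga2b at the lower left. Cd74 and H2-Aa rose from the early to the late gate in sgStat5 cells, with control steps of -0.66 and -1.78. In edgeR neither was called for the difference between the steps.

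The difference between the steps was tested directly, as sgStat5 minus control, and 0 genes passed (0%) in edgeR with the block, or without it, with 814 genes at an unadjusted p under 0.05 with the block. Without early sgStat5 replicate 2 the count was 6, and without late sgStat5 replicate 2 it was 1. DESeq2 with the same block called 71, 46 with a more positive step in sgStat5 cells and 25 with a more negative one, and limma on FPKM values called 0. For the genes that follow, edgeR gave no call for the difference. Lef1 was at 37.4 and 22.6 CPM early and 169 and 43.5 CPM late in control cells, a step of 1.58 against 3.73 in sgStat5 cells (difference 2.15, SE 0.40, adjusted p = 0.294). Late Lef1 values were alike with either guide set, and both early sgStat5 values lay below all other libraries. Cd74 was at 3.66 and 12.5 CPM early and 2.22 and 8.0 CPM late in control cells (control step -0.66, difference 2.56, SE 0.44, adjusted p = 0.279). Socs2, at 61.2 and 70.4 CPM early and 109 and 137 CPM late, rose by 0.89 in control cells against 0.01 in sgStat5 cells (difference -0.88, SE 0.31, adjusted p = 0.723). Bcl2, at 240.5 and 274 CPM early and 387 and 414 CPM late, rose by 0.65 against 0.11 (difference -0.54, SE 0.23, adjusted p = 0.836). For Ptcra the steps were 3.64 and 5.37 (difference 1.73, SE 1.02), and for Spi1 -1.72 and -1.55 (difference 0.17, SE 0.35).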

How the data were processed

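Bulk RNA-seq of 8 libraries (2 replicates in each of 4 groups of gate and guide) was analysed from a table of raw counts over exons per gene that the authors deposited. Per the file headers it was made with HOMER analyzeRepeats on mm10 with replicates kept apart. A matching FPKM table that the authors deposited served as an alternative. STAR 2.4.0 and RSEM 1.2.25 are named in the submitters' processing notes; RNA was prepared with a NEBNext Ultra kit, per the labels' protocols, and neither labels nor headers state how counting used strand.

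Of 24506 genes, 13775 passed filterByExpr. TMM scaling and edgeR 4.0.16 (quasi-likelihood F-test, R 4.3.3) were run on all 8 libraries, with 1 mean per group and the replicate number as a block (3 residual degrees of freedom), at a Benjamini-Hochberg adjusted p under 0.05. Pairing by replicate number was checked in the counts: over the 6 pairs of groups, deviations of same-numbered libraries correlated at 0.374 to 0.537. The lowest value, 0.374, was that of the early and late sgStat5 groups, the pair that the sgStat5 step uses. The highest was that of the 2 early groups. The library numbers given in the headers fall into 2 ranges, 1 per replicate number. This describes the numbering only. CPM use library totals over the genes tested, multiplied by the TMM scaling factors. SE values derive from the F statistic. Folds against a floor use the mean of the late libraries, and floors cover counting error only.

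Named genes are Stat5a, Stat5b, Bcl11b and Il2ra, the 12 largest called increases and decreases with a mean of at least 5 CPM and 1 sign in both pairs, up to 6 called members per list and direction, and key members; 2 genes that the rule or lists hold are not reported here. The comparison, lists and key genes were chosen with earlier results of these data known. The code was tested on simulated data. Alternatives were no block, DESeq2 1.42.0, RLE scaling, other filters, limma 3.58.1 on log2(FPKM + 1), only the 4 libraries of a step, and leaving out each library. Promoter windows come from RefSeq (GRCm38.p6). 44 genes tested share their counts with another gene.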

Additional observations from a re-analysis of the deposited data

How the results depend on the processing

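The sgStat5 step gave 3144 calls with the replicate block and 134 without the pairing block, all 134 among the 3144 with the same sign. The control step gave 1507 and 2, and the difference between steps 0 with and without the block. With DESeq2 the sgStat5, control and difference counts were 3580, 2197 and 71; with RLE scaling 3097, 1489 and 0; with no filter 3226, 1833 and 11; with CPM of at least 5 in 2 libraries 3105, 1650 and 0; and with limma on log2(FPKM + 1) 2836, 808 and 0. Fitted on its own 4 libraries, each step gave 2560 and 1014 calls. Leaving out 1 library at a time gave 886 to 3060 calls for the sgStat5 step, 161 to 1817 for the control step and 0 to 6 for the difference. The cause of the changed counts was not tested; a library left out also means fewer samples.

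Of 160 named genes called across the sgStat5 step, 0 changed sign under any of these alternatives, 141 lost their call without the block, 22 with limma, 6 with DESeq2 and 3 with RLE scaling. Without late sgStat5 replicate 1 the calls of 68 were lost, without early sgStat5 replicate 1 those of 54, and 86 kept their call without each library in turn. With 2 libraries per group, the precision is limited by their number more than by depth, except for genes near 0.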
